A study of Mus musculus with 6 samples.

Results

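The genes described here encode the enzymes that carry glucose carbon: those of glycolysis, lactate formation, glycogen, gluconeogenesis, the pentose phosphate pathway, the pyruvate dehydrogenase step and the citrate cycle, with the malic enzymes. They were chosen by gene symbol alone. Of 84 protein-coding mouse genes that the symbols match in the GENCODE M21 annotation, 45 are among the 7340 genes of the deposited table and the other 39 were not analysed here. Phosphofructokinase genes were left out of the set and are given with the neighbouring genes. Every gene of that table has a deposited p-value under 0.05, so each of the 45 had already passed that selection, and nothing can be said of the direction of the other 39, among them Pkm, Hk1, G6pc and Idh2.

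RNA was sequenced from 6 wild-type mouse kidney samples, whole tissue in which cell types are mixed. In 3 of them, called IRI, the kidney had undergone ischaemia-reperfusion injury, the interruption and return of its blood supply. The other 3, called MK-8617 below, had the same injury together with MK-8617, a compound that blocks prolyl hydroxylases and so stabilises hypoxia-inducible factor (HIF). The titles of all 3 name MK8617, whereas the treatment entries of replicates 2 and 3 name MK8618 and MK8619; the titles were followed. All 6 share the injury, no uninjured kidney was analysed here, and the labels give no strain, age, sex, dose or time (the table's column names carry the tag IRI1d) and do not say that replicates were separate animals. The p-values rest on the variation among these 6 samples alone, and that variation may be technical. Libraries are named by replicate number. Library totals were 16835541 to 19508497 reads.

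Glycolysis splits glucose into pyruvate, which is reduced to lactate when oxygen is short or enters mitochondria through pyruvate dehydrogenase to feed the citrate cycle. HIF is known for activating glycolytic genes and the kinases that switch pyruvate dehydrogenase off. In the kidney, proximal tubule cells make glucose rather than use it, and they burn fatty acids and lactate, while distal segments use glycolysis.

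Most listed enzymes of glycolysis rose with MK-8617. Both listed glycogen phosphorylases and 2 of 3 listed pentose phosphate genes fell, and gluconeogenesis and the citrate cycle held members that rose and members that fell. At the pyruvate dehydrogenase step 3 of 5 rose and 0 fell. Those that rose were the inhibitory kinases Pdk1 and Pdk2 and the subunit Pdha1, whose call was lost under 8 of 18 alternatives. All 45 genes passed the filter on low values and were tested with limma on log2(normalised reads + 1), where normalised reads are read counts divided by a size factor per library. At an adjusted p below 0.05, 24 rose, 10 fell and 11 were not past the threshold. Among all 6961 genes tested in the table, 35.7% rose and 38.7% fell, 74.3% in all. The median log2 fold change was 0.46 over the 45 members and -0.31 over all tested genes. The 2 groups of libraries did not overlap in 42 of the 45, with MK-8617 higher in 28 and lower in 14, against 92.5% of all tested genes. By the adjusted p of the authors' deposited table, 36 of the members were below 0.05, as were 77.1% of all listed genes, and 34 of these were called here in the same direction. Without IRI replicate 3, the library with the lowest proximal tubule marker, 23 rose and 11 fell.

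**Figure D1:**
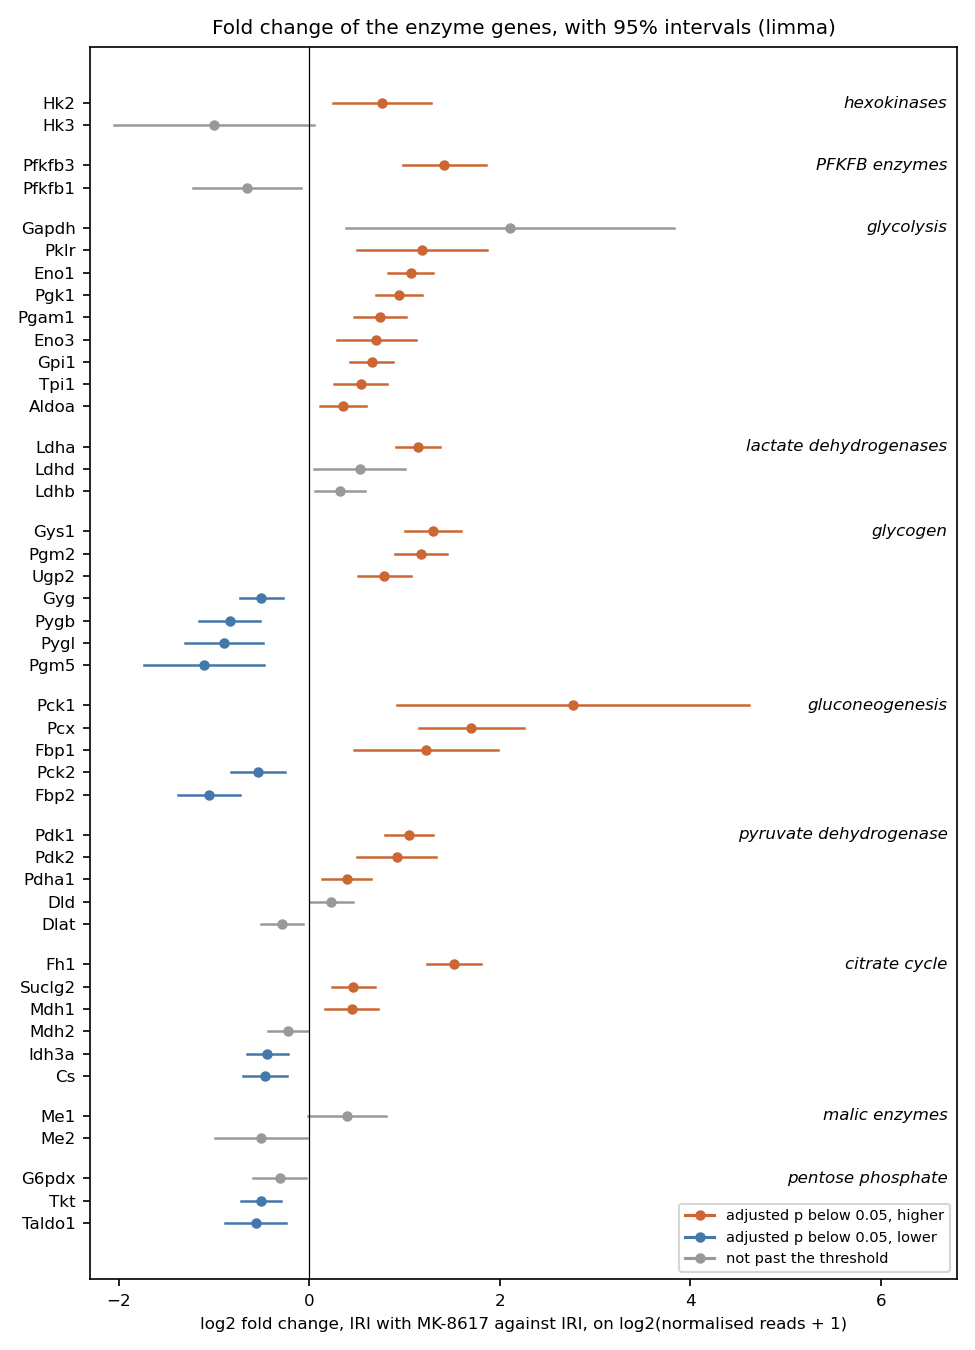
Log2 fold change (x axis) of IRI with MK-8617 against IRI for the enzyme genes described (y axis), grouped by role, with points for the estimates and bars for the 95% intervals from limma. The genes of the glycolysis group that are drawn lie to the right of 0, from 0.35 for Aldoa to 2.10 for Gapdh, whereas the glycogen group splits, with Gys1 at 1.30 and Pgm5 at -1.11.

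Every step of glycolysis that the members cover held a gene that was higher with MK-8617, although Gapdh did not pass the test. Of 17 listed genes of hexokinase, PFKFB, glycolysis and lactate dehydrogenase type 12 rose and 0 fell, with a median log2 fold change of 0.74. Ldha, the muscle-type lactate dehydrogenase subunit that favours lactate formation (ENSMUSG00000063229, GRCm38 chromosome 7, 46841475 to 46855627), had 13052, 14323 and 12501 normalised reads with IRI and 29710.4, 28591 and 29607 with MK-8617, each in the order of replicates 1, 2 and 3. The lowest MK-8617 library lay far above the highest IRI library, and the log2 fold change was 1.14 ± 0.10 (SE, n = 3 per group) with an adjusted p of 0.000184 in limma. Eno1, the ubiquitous enolase (ENSMUSG00000063524, GRCm38 chromosome 4, 150236721 to 150248879), went from 19012, 21107 and 19298 to 39333, 42611 and 42236, a rise of 1.06 ± 0.10 on the log2 scale. In both genes the 3 libraries of a group lay close together.

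Pgk1, the first ATP-yielding kinase of the pathway, had 9285, 9767 and 9825 normalised reads with IRI and 18005, 17139 and 20515 with MK-8617 (log2 fold change 0.94 ± 0.11, limma adjusted p = 0.000559). Gpi1, which interconverts glucose and fructose phosphates, had 8824, 8616 and 9112 against 13931, 14861 and 13100.4, a rise of 0.66 ± 0.10. Pgam1, a phosphoglycerate mutase, had 4092, 4089.7 and 3451 against 5871, 6381 and 7251, a rise of 0.74 ± 0.12. All 3 genes were higher in every MK-8617 library than in any IRI library, and none lost its call under any alternative. Tpi1, triose phosphate isomerase, rose by 0.54 ± 0.12 and Aldoa, the muscle-type aldolase, by only 0.35 ± 0.11. Tpi1 missed the threshold on leaving out MK-8617 library 2 (0.51). The call of Aldoa was lost on leaving out IRI library 1 (0.36), IRI library 2 (0.30), MK-8617 library 1 (0.35) or MK-8617 library 2 (0.31) and with the replicate number as a block (0.35). Eno3, the muscle enolase, rose by 0.70 ± 0.18 from a low level of 119 ± 4.19 normalised reads (mean ± SD). Eno3 missed the threshold on leaving out IRI library 1 (0.67), MK-8617 library 1 (0.64) or MK-8617 library 2 (0.63).

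Gapdh, which encodes glyceraldehyde phosphate dehydrogenase (ENSMUSG00000057666, GRCm38 chromosome 6, 125161715 to 125166467), had 528, 585 and 500.4 normalised reads with IRI and 1185, 8567 and 1215 with MK-8617. MK-8617 replicate 2 stood far above the other MK-8617 libraries, which were themselves above all IRI libraries. With that spread the log2 fold change of 2.10 ± 0.73 was not past the threshold (limma adjusted p = 0.0745). Without MK-8617 replicate 2 it was 1.16 and past the threshold, and it was also past it with edgeR (2.83) and DESeq2 (2.77) on recovered reads and when adjusted over the listed genes alone. Gapdh has many processed pseudogenes, and how reads shared with them were counted is not given in the sources used here.

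Copies of other members were in the table too. Whether reads were shared between a member and its copy was not tested, and the values of both are uncertain to that extent. Eno1b, an intronless copy of Eno1, had 263, 273 and 264 normalised reads with IRI and 1289, 1637 and 1915 with MK-8617. Eno1b was thus higher in every MK-8617 library, by a log2 fold change of 2.57 ± 0.14, while its reads were few beside those of Eno1. The processed pseudogenes Tpi-rs11, Pgam1-ps2 and Ldha-ps2 rose by 1.67 ± 0.18, 1.63 ± 0.28 and 1.64 ± 0.34, from 75.7, 74.7 and 67.1, from 43.5, 32.8 and 31.6 and from 13.3, 20 and 18.2 normalised reads with IRI.

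Entry into glycolysis was represented by few genes. Hk2, the inducible hexokinase, had 145, 226 and 179 normalised reads with IRI and 281, 254 and 408 with MK-8617, a rise of 0.77 ± 0.23. The call of Hk2 was lost on leaving out IRI library 1 (0.61), MK-8617 library 1 (0.83) or MK-8617 library 3 (0.56) and on FPKM (0.72) or with the gene length trend removed (0.66). Hk3, a hexokinase of myeloid cells, had 36, 48.3 and 17.3 against 14.3, 22.4 and 10.6, and its groups overlapped (log2 fold change -0.997 ± 0.46, limma adjusted p = 0.165). Without IRI replicate 3 its value of -1.41 was past the threshold. Pfkfb3, which makes the sugar bisphosphate that activates phosphofructokinase, had 398, 333 and 399.7 against 801, 915 and 1389 and rose by 1.42 ± 0.19, with MK-8617 replicate 3 the highest. Pfkfb1, its liver-type relative, had 63.4, 80.2 and 75.7 against 44.1, 40.6 and 54.2, lower in all MK-8617 libraries but not past the threshold (log2 fold change -0.65 ± 0.25, limma adjusted p = 0.0852), except when adjusted over the listed genes alone.

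At the end of the pathway Pklr, the liver and red cell pyruvate kinase, had 452, 475 and 258 normalised reads with IRI and 572, 1249 and 913 with MK-8617, a rise of 1.18 ± 0.30. Pklr missed the threshold on leaving out MK-8617 library 2 (0.92) or MK-8617 library 3 (1.15). Ldhb, the heart-type lactate dehydrogenase subunit, had 13279.9, 13919 and 11118 against 16356, 15727 and 15475. It was higher in every MK-8617 library but not past the threshold (0.32 ± 0.12, limma adjusted p = 0.0728). It was past the threshold with edgeR (0.38), with DESeq2 (0.31), with TMM factors (0.38), when adjusted over the listed genes alone and with the gene length trend removed (0.74). Ldhd, a mitochondrial lactate dehydrogenase for the D form, had 8361, 6973 and 4342 against 9045, 9671 and 8684 and was not past it either (0.53 ± 0.21, limma adjusted p = 0.0982), except without IRI replicate 1 (0.73) and when adjusted over the listed genes alone.

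**Figure D2:**
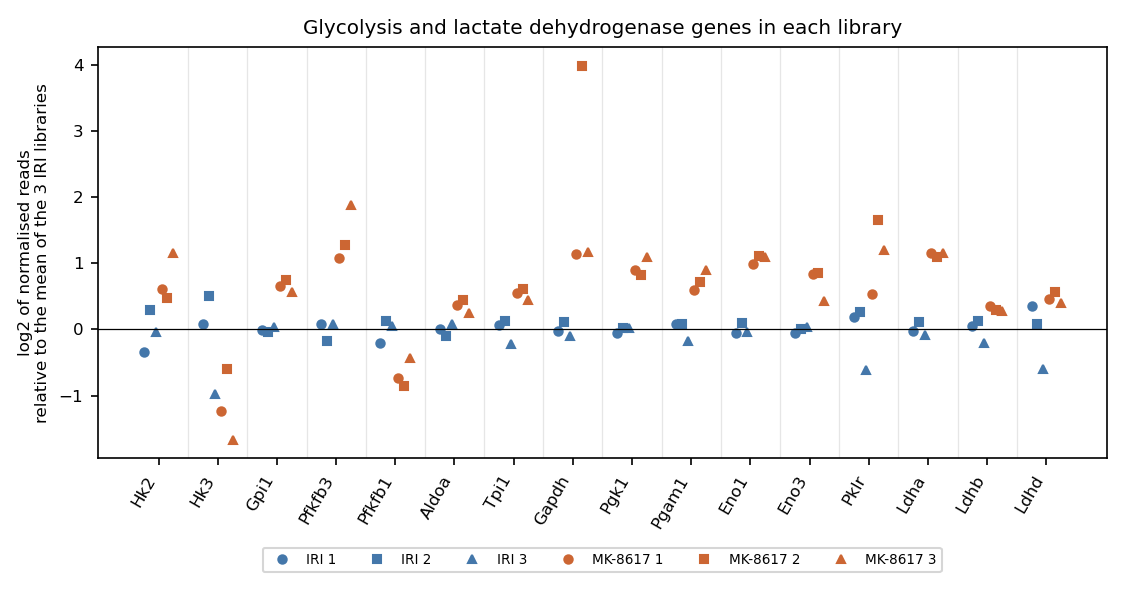
Normalised reads of glycolysis and lactate dehydrogenase genes (x axis, in pathway order) in each of the 6 libraries, as the log2 ratio to the mean of the IRI libraries (y axis). Points of MK-8617 libraries lie below those of IRI libraries in Pfkfb1, among them in Hk3 and above them in every other gene drawn, and Gapdh in MK-8617 replicate 2 is set apart from the rest.

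Promoters were compared because HIF binds the cores ACGTG and GCGTG. RefSeq promoters (GRCm38.p6, 250 bases before to 50 after a gene's start) were found for 42 of the 45 members, the one nearest the GENCODE start being used, and both cores were searched on both strands, so that the palindrome CACGTG, also the E-box bound by other factors, counts as 2 overlapping matches. At least 1 match was present in 29 of the 42, or 69.05% of them, against 43.77% of all 32851 promoters in the table. It was present in 62.16% of 5195 listed genes with a promoter otherwise chosen in the same way. The share was 15 of 23 for members that rose, 7 of 9 for those that fell and 7 of 10 for the others. Sequences are given 5′ to 3′ with matches in capitals for the 4 largest rises that hold a match, then for Ldha, chosen later for holding the most matches, and for Pgm5, the largest fall, with none. A match is a description of the letters and not a bound site.
Pcx (chr19:4510222-4510521, plus strand): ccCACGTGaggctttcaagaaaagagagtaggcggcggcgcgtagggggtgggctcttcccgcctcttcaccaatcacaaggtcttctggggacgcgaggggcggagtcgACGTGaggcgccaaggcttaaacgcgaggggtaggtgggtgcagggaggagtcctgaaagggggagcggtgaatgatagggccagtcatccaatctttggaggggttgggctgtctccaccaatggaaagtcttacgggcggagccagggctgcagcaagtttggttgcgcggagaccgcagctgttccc
Fh1 (chr1:175625586-175625885, minus strand): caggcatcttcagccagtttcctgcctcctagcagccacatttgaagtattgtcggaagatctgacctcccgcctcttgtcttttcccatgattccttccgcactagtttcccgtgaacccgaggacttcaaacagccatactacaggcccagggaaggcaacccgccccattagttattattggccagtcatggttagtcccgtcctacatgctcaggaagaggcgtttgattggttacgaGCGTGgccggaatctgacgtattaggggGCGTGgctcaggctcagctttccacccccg
Pfkfb3 (chr2:11553880-11554179, minus strand): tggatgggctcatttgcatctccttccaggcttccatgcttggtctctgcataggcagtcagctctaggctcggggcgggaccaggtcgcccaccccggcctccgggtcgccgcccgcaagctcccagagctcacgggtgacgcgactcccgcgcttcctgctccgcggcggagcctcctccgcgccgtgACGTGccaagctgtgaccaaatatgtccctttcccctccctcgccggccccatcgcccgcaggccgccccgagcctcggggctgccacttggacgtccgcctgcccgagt
Pgm2 (chr4:99929201-99929500, plus strand): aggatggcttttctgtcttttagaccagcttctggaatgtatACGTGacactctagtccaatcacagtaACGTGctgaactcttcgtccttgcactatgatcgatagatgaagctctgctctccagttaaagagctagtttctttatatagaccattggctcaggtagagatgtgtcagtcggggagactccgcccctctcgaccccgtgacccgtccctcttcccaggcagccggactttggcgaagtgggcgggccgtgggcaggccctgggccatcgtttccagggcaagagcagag
Ldha (chr7:46845554-46845853, plus strand): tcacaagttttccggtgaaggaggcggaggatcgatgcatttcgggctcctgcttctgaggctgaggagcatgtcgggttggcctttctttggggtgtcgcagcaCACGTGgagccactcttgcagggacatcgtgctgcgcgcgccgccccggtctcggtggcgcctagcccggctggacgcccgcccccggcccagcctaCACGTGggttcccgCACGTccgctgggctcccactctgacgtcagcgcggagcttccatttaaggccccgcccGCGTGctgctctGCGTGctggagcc
Pgm5 (chr19:24861793-24862092, minus strand): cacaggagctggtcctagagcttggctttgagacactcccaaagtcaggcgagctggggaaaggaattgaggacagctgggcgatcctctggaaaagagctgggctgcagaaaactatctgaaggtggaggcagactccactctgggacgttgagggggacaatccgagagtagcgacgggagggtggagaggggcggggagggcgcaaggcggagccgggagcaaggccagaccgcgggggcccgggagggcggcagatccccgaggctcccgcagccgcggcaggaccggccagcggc
In Ldha the 7 matches begin between 145 bases before and 37 after the RefSeq start, which lies 4329 bases from the start of the GENCODE gene, and 4 of them form 2 palindromes. Pcx has 3 matches, Pgm2 and Fh1 have 2 each and Pfkfb3 has 1. Gys1 and Pck1, both of which rose, have no match in this window.

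Glycogen genes split by direction. Of 7 listed members 3 rose and 4 fell, with a group median of -0.50. Those that rose were Gys1, Pgm2 and Ugp2. Those that fell were both listed phosphorylases, Pgm5 and Gyg, which primes new glycogen, so the split did not simply separate synthesis from breakdown. Gys1, the muscle-type glycogen synthase (ENSMUSG00000003865, GRCm38 chromosome 7, 45434844 to 45456619), had 838, 669 and 892 normalised reads with IRI and 1904, 2173 and 1823 with MK-8617, a rise of 1.30 ± 0.13 with a limma adjusted p of 0.000291. The gene deposited under the name Pgm2, with the identifier ENSMUSG00000025791 that GENCODE M21 names Pgm1, encodes a phosphoglucomutase and had 1465, 1384 and 1097 against 2818, 3053 and 2969 (1.17 ± 0.12). Ugp2, which makes the UDP-glucose that glycogen synthase adds, had 1766, 1960.1 and 1516 against 2819.5, 2902 and 3318 (0.79 ± 0.12). All 3 genes rose under every alternative that was run.

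Pygb, the brain-type glycogen phosphorylase, had 1287, 1211 and 1552 normalised reads with IRI and 702, 671 and 899.6 with MK-8617, a log2 fold change of -0.84 ± 0.14. Pygl, the liver type, fell with a log2 fold change of -0.90 ± 0.18. The share of Pygb in the summed FPKM of both overlapped between groups, at 86.7% ± 0.44 with IRI and 87.1% ± 1.41 with MK-8617 (SD, n = 3). Gyg, glycogenin, the primer of new glycogen, also fell (-0.50 ± 0.10). The call of Gyg was lost with the gene length trend removed (-0.25). Pgm5, a phosphoglucomutase relative found at cell adhesions that lacks the enzyme activity, fell from 91.4 ± 23.1 to 41.4 ± 7.43 normalised reads (mean ± SD, -1.11 ± 0.28). Pgm5 missed the threshold on leaving out IRI library 1 (-1.12), MK-8617 library 1 (-1.03) or MK-8617 library 2 (-1.04).

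Gluconeogenic genes held the widest range, and 2 pairs of isozymes went opposite ways. Of 5 listed members 3 rose and 2 fell. Pck1, the cytosolic phosphoenolpyruvate carboxykinase that commits carbon to glucose (ENSMUSG00000027513, GRCm38 chromosome 2, 173153048 to 173159273), had 15840.1, 17966 and 2065 normalised reads with IRI and 50413, 60946 and 60804 with MK-8617. IRI replicate 3 was 0.122 times the mean of the other IRI libraries. The log2 fold change of 2.77 ± 0.78 became 1.76 without that library, still past the threshold (limma adjusted p = 0.0385 with all libraries). The call of Pck1 was lost on leaving out IRI library 2 (3.32), MK-8617 library 1 (2.86), MK-8617 library 2 (2.72) or MK-8617 library 3 (2.73). Fbp1, the liver and kidney fructose bisphosphatase, had 3651, 4277 and 1475 against 6989, 6163 and 6849 and rose by 1.23 ± 0.33, or by 0.75 without IRI replicate 3. Fbp1 missed the threshold on leaving out MK-8617 library 1 (1.19), MK-8617 library 2 (1.28) or MK-8617 library 3 (1.21) and on FPKM (1.21). Pcx, pyruvate carboxylase, had 3102, 2973 and 1519 against 7717, 7367 and 8494 and rose by 1.70 ± 0.24, or by 1.37 without IRI replicate 3.

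The relatives fell. Fbp2, the muscle-type fructose bisphosphatase, had 1086, 1158 and 1250.0 normalised reads with IRI and 572, 670.2 and 460.4 with MK-8617, a log2 fold change of -1.05 ± 0.14. Pck2, the mitochondrial carboxykinase, had 695, 693 and 590.5 against 459, 496 and 406 (-0.54 ± 0.12). In IRI replicate 3 these genes were 1.11 and 0.851 times the mean of the other IRI libraries. With 1 MK-8617 library left out, whichever it was, only Pcx of the 3 genes that rose remained past the threshold.

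A total of 9 members, 20% of the 45, were below 2/3 of the mean of the other IRI libraries in IRI replicate 3, against 11.3% of all tested genes. Pck1, Fbp1, Pcx, Pklr, Pdk2, Hk3, Ldhd and Me1 were among them, and 6 of the 9 rose. Slc27a2, a fatty acid transporter gene of the proximal tubule and the 1 listed gene of 9 markers of that segment, had 19789.7, 21053 and 5546 normalised reads with IRI and 35265, 32954 and 32890.2 with MK-8617. It had the same low IRI replicate 3 and was not past the threshold (1.35 ± 0.44, limma adjusted p = 0.0532). Its part in the results for these members was not tested. In whole tissue fewer cells of a type and less RNA per cell cannot be told apart. All 6 that rose remained past the threshold without IRI replicate 3.

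**Figure D3:**
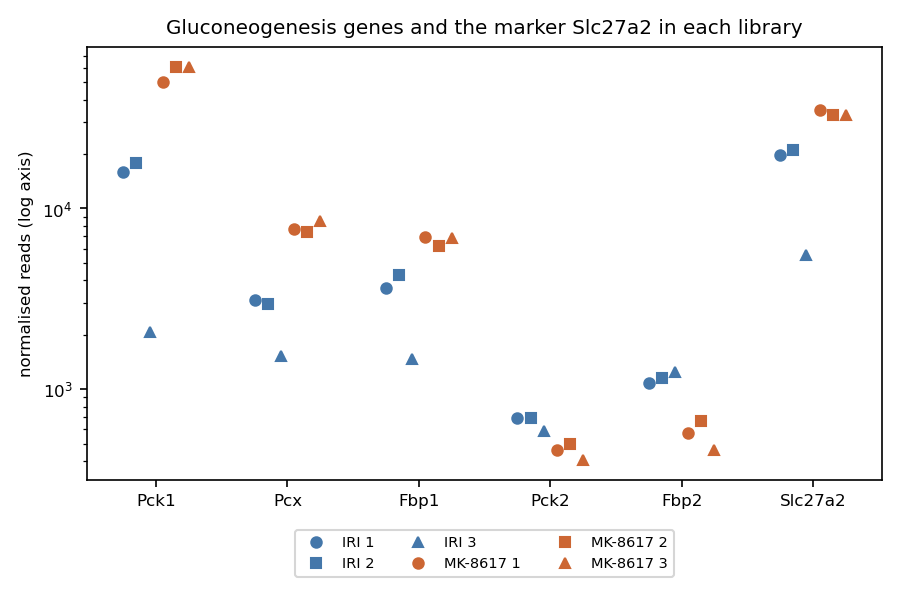
Normalised reads (y axis, log scale) of the 5 gluconeogenic genes and the proximal tubule marker Slc27a2 (x axis) in each of the 6 libraries. IRI replicate 3 lies lowest among the IRI libraries in Pck1, Pcx, Fbp1 and Slc27a2, where all MK-8617 libraries are above all IRI libraries, whereas Pck2 and Fbp2 are lower with MK-8617.

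Shares of isozymes were compared on FPKM, which is scaled to gene length. Of 11 pairs, chosen with the values known, 8 had groups that did not overlap. Groups of single genes did not overlap in 92.5% of all tested genes, so this count does not set the pairs apart. Each of these had an exact two-sided permutation p of 0.1, the smallest that 3 against 3 samples allow, and 0.14 after Benjamini-Hochberg adjustment over the 11 pairs. Ldha made up 31.8%, 32.8% and 34.8% of the Ldha and Ldhb total in the IRI libraries and 46.3%, 46.3% and 47.6% in the MK-8617 libraries. The mean was 33.1% ± 1.52 with IRI and 46.7% ± 0.74 with MK-8617 (SD, n = 3), so the Ldha share of transcripts was higher with MK-8617. How near the shares lie to equality depends on the exon lengths, 3310 bases for Ldha and 1570 for Ldhb. In mean normalised reads, not scaled to length, Ldha had 13292 beside 12772 for Ldhb with IRI. With MK-8617 these means were 29303 and 15853. For Fbp1 in the Fbp1 and Fbp2 total the mean was 67% ± 14.3 with IRI and 91% ± 2.01 with MK-8617, and for Pfkfb3 in the total with Pfkfb1 it was 73.2% ± 4.06 and 92% ± 1.29. Mdh1, the cytosolic malate dehydrogenase, made up 60.4% ± 3.38 and 70.8% ± 1.00 of the total with its mitochondrial relative Mdh2. The share of Pdk1 beside Pdk2 overlapped between groups, at 24% ± 5.57 and 25.6% ± 3.89 (exact permutation p = 0.8).

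**Figure D4:**
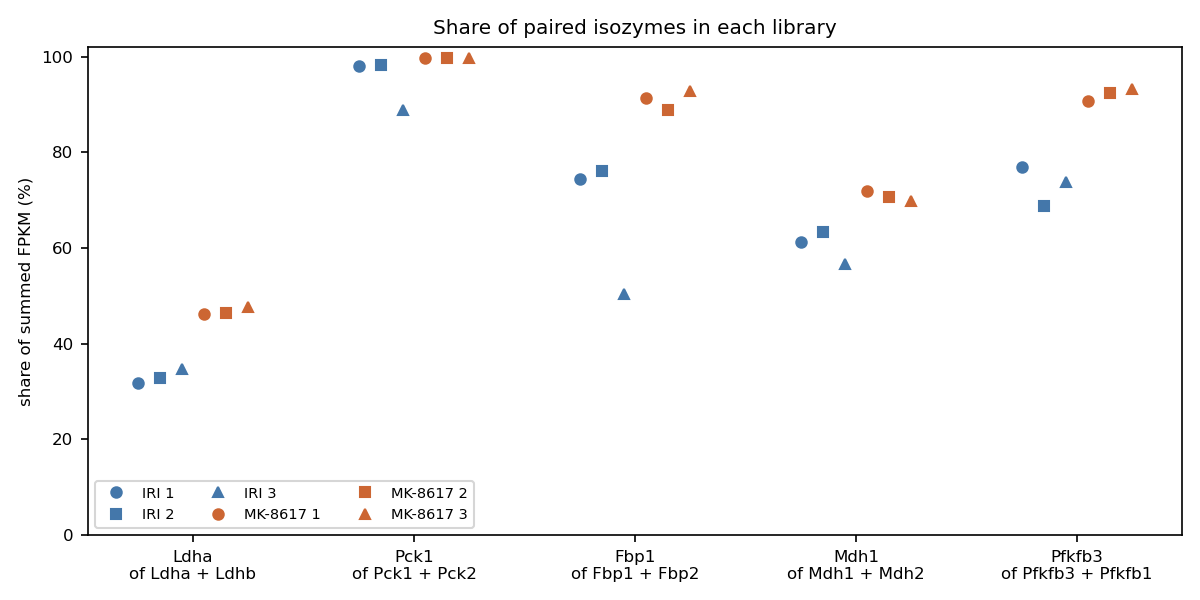
Share of the first-named gene in the summed FPKM of an isozyme pair (y axis, percent) in each of the 6 libraries, for 5 pairs (x axis). Shares are higher in all MK-8617 libraries for all 5 pairs, Ldha among them at 46.3% to 47.6% against 31.8% to 34.8%.

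At the pyruvate dehydrogenase step 2 inhibitory kinases rose, and of the subunits of the complex Pdha1 alone passed the test. Of 5 listed members 3 rose and 0 fell. Pdk1, the kinase known as a HIF target, had 863, 826 and 871 normalised reads with IRI and 1547, 1807 and 1965 with MK-8617, a rise of 1.05 ± 0.11 with a limma adjusted p of 0.00037. Pdk2, the widely expressed kinase, had 1300.5, 1309.8 and 809 against 2319, 2043 and 1959, a rise of 0.92 ± 0.18. Both kinase genes were higher in every MK-8617 library.

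Among subunits of the complex, Pdha1, of the decarboxylase, had 3604, 3452 and 3175 against 4257, 4154 and 5067 (0.39 ± 0.11). The rise of Pdha1 was not past the threshold when any 1 of the 6 libraries was left out (0.30 to 0.45), on FPKM (0.38) or with the replicate number as a block (adjusted p of 0.0519 in limma). Dlat, the acetyl-transferring core, had 2245, 2033 and 2215 against 1661, 1867 and 1803, lower in all MK-8617 libraries but not past the threshold (-0.28 ± 0.10, limma adjusted p = 0.0552). It was past the threshold with DESeq2 (-0.28), when adjusted over the listed genes alone and with the gene length trend removed (-0.33). Dld, the dehydrogenase shared with the citrate cycle, had a log2 fold change of 0.23 ± 0.10 (limma adjusted p = 0.118), and passed the threshold with the gene length trend removed (0.34) and when adjusted over the listed genes alone.

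In the citrate cycle Fh1 had the largest change. Of 6 listed members 3 rose and 2 fell, with a median of 0.11. Fh1, fumarate hydratase (ENSMUSG00000026526, GRCm38 chromosome 1, 175600374 to 175625635), had 2753, 2793 and 2159 normalised reads with IRI and 7398, 7771 and 6809 with MK-8617, a rise of 1.52 ± 0.13 with a limma adjusted p of 0.000126, the smallest of all 45 members. Suclg2, a subunit of succinyl-CoA synthetase, had 3640.1, 3363 and 3099 against 4523, 4694 and 4667 (0.46 ± 0.10). Mdh1, which acts in the cytosol, rose by 0.44 ± 0.12. The call of Mdh1 was lost on leaving out IRI library 1 (0.48), MK-8617 library 1 (0.40), MK-8617 library 2 (0.46) or MK-8617 library 3 (0.48).

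Enzymes of the first part of the cycle were lower. Cs, citrate synthase, had 5614, 5354 and 5823 normalised reads with IRI and 4056, 3753 and 4377 with MK-8617, a log2 fold change of -0.46 ± 0.10. Idh3a, a catalytic subunit of the NAD-dependent isocitrate dehydrogenase, had 2738, 2847 and 2482 against 2034, 1899 and 2012 (-0.44 ± 0.10). Mdh2, which regenerates oxaloacetate in mitochondria, had 6984, 6720.2 and 6867 against 5968, 5804 and 5854, lower in each MK-8617 library but not past the threshold (-0.22 ± 0.09, limma adjusted p = 0.107). It was past the threshold with DESeq2 (-0.22) and when adjusted over the listed genes alone. The citrate cycle and pyruvate dehydrogenase members that fell, Cs and Idh3a, did so under every alternative, and the rise of Fh1 was also kept.

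Of 3 listed pentose phosphate genes 2 fell and 0 rose, and neither listed malic enzyme was past the threshold. Tkt, transketolase, had 7808, 8136 and 7799 normalised reads with IRI and 5509.9, 5609.6 and 5603 with MK-8617, a log2 fold change of -0.51 ± 0.09 (limma adjusted p = 0.00412). Taldo1, transaldolase, had 12390.2, 11526 and 16426 against 8772, 9599 and 8630.1 (-0.56 ± 0.14). Taldo1 missed the threshold on leaving out MK-8617 library 1 (-0.55) or MK-8617 library 3 (-0.53) and with the gene length trend removed (-0.29). G6pdx, the NADPH-making entry enzyme, had 1616, 1393 and 1910.5 against 1303, 1299.9 and 1333, lower in every MK-8617 library but not past the threshold (-0.31 ± 0.12, limma adjusted p = 0.0951). It was past it without IRI replicate 2 (-0.42) and when adjusted over the listed genes alone. Me1 and Me2, the cytosolic and a mitochondrial malic enzyme, overlapped between groups, with 3796, 4710.0 and 2712 against 4619, 4727 and 5063 for Me1 (0.40 ± 0.18) and 231, 180.3 and 217 against 121, 133 and 192 for Me2 (-0.51 ± 0.21). Me1 was past the threshold without IRI replicate 2 (0.58), and Me2 without MK-8617 replicate 3 (-0.71) and when adjusted over the listed genes alone.

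**Figure D5:**
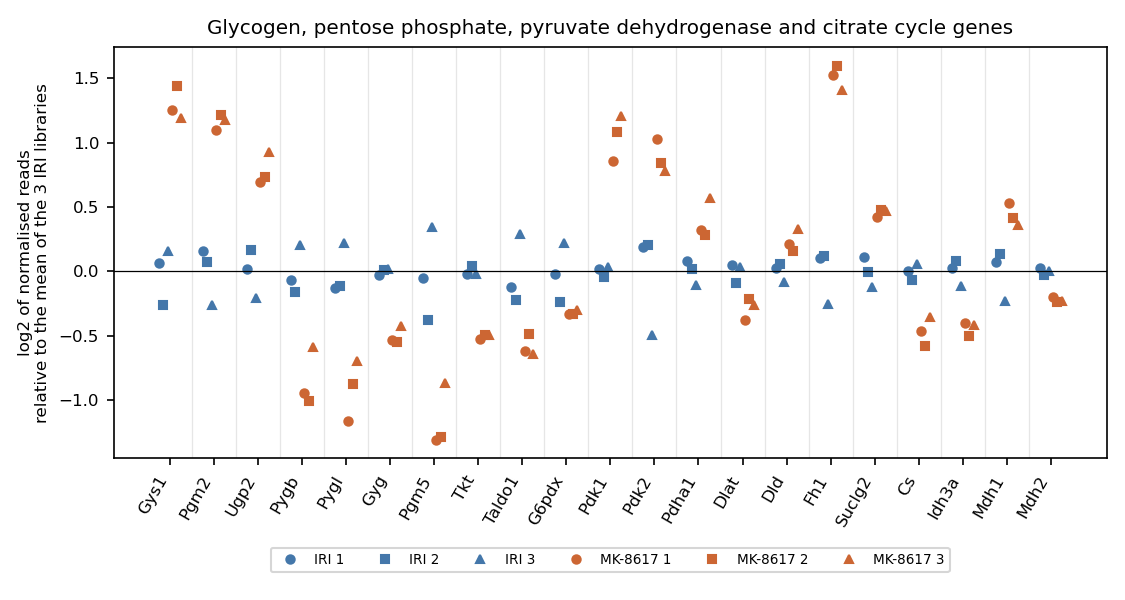
Normalised reads of the glycogen, pentose phosphate, pyruvate dehydrogenase and citrate cycle genes (x axis) in each of the 6 libraries, as the log2 ratio to the mean of the IRI libraries (y axis). Gys1, Pgm2, Ugp2, Pdk1, Pdk2 and Fh1 have all MK-8617 points above the IRI points, and Pygb, Pygl, Gyg, Pgm5, Tkt and Cs have all of them below.

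Neighbouring genes of these pathways, from 6 lists outside the member set, were divided evenly. Of 70 genes 37 were listed and 36 tested, and 15 rose and 15 fell. Among all tested genes the division was also near even, with 35.7% that rose and 38.7% that fell. Of the 12 tested transporters of glucose and lactate 3 rose and 5 fell. Slc16a3, the lactate exporter, had 84.2, 111 and 83.4 normalised reads with IRI and 485, 703 and 633 with MK-8617, a rise of 2.69 ± 0.19, and Slc2a1, the basal glucose transporter GLUT1, rose by 1.51 ± 0.18. Slc5a1, a sodium-glucose cotransporter, fell with -0.82 ± 0.14. For phosphofructokinase, Pfkl rose by 1.93 ± 0.10 and Pfkm fell with -0.78 ± 0.13.

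Of 5 tested genes of pyruvate entry and pyruvate dehydrogenase control 3 rose and 2 fell. Pdk4, the pyruvate dehydrogenase kinase induced by fasting, went from 1566, 1106 and 2747 to 15219, 12024 and 13995, a rise of 3.02 ± 0.28. Mpc1, a subunit of the mitochondrial pyruvate carrier, rose by 0.64 ± 0.11, and Nfu1, which supplies iron-sulphur clusters for lipoate synthesis, fell with -0.93 ± 0.11. Of 7 tested glycogen regulators 4 rose and 1 fell. The one that fell was Stbd1, a glycogen-binding receptor (-1.22 ± 0.16), while Ppp1r3e, a phosphatase subunit that targets glycogen, and Phkg2, a phosphorylase kinase subunit, rose by 0.76 ± 0.15 and 0.55 ± 0.12. Both tested succinate dehydrogenase genes fell, Sdhd with -0.72 ± 0.11 and the assembly factor Sdhaf4 with -0.82 ± 0.19. The call of Sdhd was lost with the gene length trend removed (-0.16). Sdhaf4 missed the threshold on leaving out IRI library 1 (-0.75) or MK-8617 library 3 (-0.76) and with the gene length trend removed (-0.08). In the side branches of glucose use 4 of 8 rose and 4 fell. Adpgk, an ADP-dependent glucokinase, and H6pd, the glucose phosphate dehydrogenase of the endoplasmic reticulum, rose by 0.78 ± 0.12 and 0.81 ± 0.13, and Bpgm, bisphosphoglycerate mutase, fell with -0.58 ± 0.10. The number of neighbouring genes that fell was 9 without IRI replicate 1, 8 without MK-8617 replicate 3 and 9 with the gene length trend removed.

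Markers of other kidney cell types moved as well, and their part in the results above was not tested. For comparison with the counts below, 35.7% of all tested genes rose and 38.7% fell. Of 9 macrophage and monocyte markers 8 were listed, of which 7 fell and 0 rose, with summed normalised reads of 2680.2 to 5244 with IRI and 1105 to 1449 with MK-8617. Both listed neutrophil markers of 5 fell, although the groups of S100a8 overlapped, with 235.9 in MK-8617 replicate 2 against 233.9 in IRI replicate 3. All 5 of 5 markers of proliferating cells fell, with sums of 427 to 2779 with IRI and 109.6 to 135 with MK-8617. So did 3 of 4 listed fibroblast and pericyte genes, Dcn rising. Of 4 listed collecting duct genes 3 fell, and of 3 listed thick ascending limb genes 2 fell, Slc12a1 and Kcnj1. Umod, the third of these and a defining gene of kidney, had 35706, 21674 and 36519 normalised reads with IRI and 29584, 48959.9 and 50299 with MK-8617, and its groups overlapped (0.46 ± 0.25, limma adjusted p = 0.282). It made up most of the sum of the 3 genes, which was 25057 to 42656 with IRI and 31474 to 51934 with MK-8617, while Slc12a1 went from 3527, 2347 and 4389 to 1003, 1144 and 914 and Kcnj1 from 1538, 1037 and 1748 to 886, 899.7 and 719.9. Both listed podocyte genes and 2 of 3 distal convoluted tubule genes rose. The 1 listed endothelial gene, Emcn, was not past the threshold, and 0 of 4 red blood cell genes were listed. None of the listed defining markers was at 0 in any library.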

How the data were processed

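Whole-kidney RNA from 6 samples was sequenced. The submitters' processing notes name featureCounts 1.5.0-p3, HISAT2 2.0.5, DESeq2 1.20.0, fastp and CASAVA 1.8, with no role for each. The same notes give the build GRCh38 (hg38), although the identifiers are of mouse genes; coordinates here are from GENCODE M21 (GRCm38), which matched 7338 of 7340 identifiers. Strand use and the handling of shared reads are not given in the sources used here.

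The deposited signal values are gene read counts divided by 1 size factor per library. Multiplied back, every value came out whole within 0.001 of a read, a margin widened in proportion to the count for genes with many reads. The values of IRI replicate 3 equalled its deposited count in 7340 of 7340 genes. The authors also deposited FPKM, a log2 fold change and p-values, and 13 unnamed empty columns were not used. The authors' adjusted p-values imply 18811 genes tested.

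The main test was limma 3.58.1 (trend, robust) on log2(value + 1) with Benjamini-Hochberg adjustment over 18811 genes at a threshold of 0.05, after a filter on low reads (edgeR 4.0.16) that removed 379 genes and left 6961. The limma test was also run on simulated data for this comparison, 6961 genes in all. That run recovered 77% of 100 genes changed by 1 on the log2 scale and 98% of 100 changed by 2, with 10 false calls. How these shares carry over to the adjustment over 18811 genes, with 74.3% of tested genes called, was not tested. The alternatives were limma-voom, edgeR and DESeq2 1.42.0 on recovered reads, FPKM, TMM factors, pseudocounts of 0.5 and 5, no filter, a mean of at least 5 CPM, adjustment over the listed genes, a gene length trend removed, each library left out and the replicate number as a block. No samples were left out of the main test.

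Members, gene lists and isozyme pairs were chosen with earlier results of these data known. One listed member is counted but not reported here by its own values, and every other one is named. Ldha, Eno1, Gapdh, Gys1 and the 4 members of each role with the smallest p are given by library, as are Pck1, Pklr and Mdh2, added after their values were seen. In each list of neighbouring genes the 3 with the smallest p are named. The copies of members were chosen after their values were seen.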

Additional observations from a re-analysis of the deposited data

How the results depend on the processing

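No result changed direction under the 18 alternatives, and 22 members (15 that rose and 7 that fell) kept their call under all of them. Leaving out 1 library at a time gave 17 to 23 members that rose and 8 to 11 that fell, against 24 and 10, and 9 to 12 glycolytic members that rose, against 12. Members of the citrate cycle and pyruvate dehydrogenase that fell numbered 4 with DESeq2 and 4 when adjusted over the listed genes alone, against 2. Neighbouring genes that fell numbered 9 with the gene length trend removed and 8 to 13 with 1 library left out, against 15. Among all tested genes 1488 rose without MK-8617 replicate 1 and 1618 without MK-8617 replicate 3, against 2482.

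The main test did not pair libraries by replicate number. Deviations of same-numbered libraries from their group means correlated by 0.0206, 0.116 and 0.115, and each library correlated best with its own number. Whether the numbers mark pairs cannot be told from these values. With the replicate block 22 members rose and 10 fell, 11 glycolytic members rose, and 14 neighbouring genes fell.

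The table holds only genes that the authors' comparison had selected, so shares of changed genes cannot be carried over to the genes outside it. At 3 libraries a group, changes of 1 on the log2 scale were recovered less often in simulated data than changes of 2, and differences below the threshold are not evidence of equal levels. The causes of the lost calls were not tested.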

Other observations

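Levels per gene length placed Gapdh apart from its neighbours in the pathway. In FPKM, Gapdh was at 7.32 ± 0.596 with IRI and 49 ± 56.9 with MK-8617 (mean ± SD, n = 3), whereas Tpi1 was at 222 ± 28.9 and 317 ± 15.8, Pgk1 at 241 ± 6.53 and 460 ± 45.6, and Ldha at 226 ± 16.2 and 492 ± 12. The reason for the low level of Gapdh, and for its value in MK-8617 replicate 2, was not tested.

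The testis-type relative Gapdhs, a low gene at 32.2, 30.1 and 27.8 normalised reads with IRI and 54.3, 79 and 72.3 with MK-8617, rose by 1.15 ± 0.27 on the log2 scale (limma adjusted p = 0.0133). It was chosen after its values were seen.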
